A study of Caenorhabditis elegans with 20 samples.

Results

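The claudin-like genes clc-1, clc-2, clc-3, clc-4 and clc-5 of Caenorhabditis elegans are followed here across 5 strains of adult nematodes. They are the 5 rows, of 46778 genes in each table, that carry these symbols. The set was proposed because clc-1 was low in the granulin 1 strain against the pgrn-1 null, so every clc-1 level is given as a description without a test. Its 4 relatives were chosen by name and were tested.

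Claudins are small proteins that span the membrane several times and line the contacts between neighbouring epithelial cells. In vertebrates they form the strands of tight junctions and set which ions and solutes pass between cells. The nematode has no classical tight junction, but claudin-like proteins are found at its epithelial contacts. In this species CLC-1 has been described in epithelial cells of the pharynx and CLC-2 in seam cells of the hypodermis, the outer epithelium, and both were linked to barrier function there. The roles of CLC-3, CLC-4 and CLC-5 are less settled and are not described here.

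Whole animals were collected on day 1 of adulthood after synchronisation by egg lay, with no further treatment, and total RNA was sequenced in 20 libraries, 4 per strain. The strains were N2 wild type, CF3050, which lacks pgrn-1, and 3 strains that also lack pgrn-1 but carry 1 granulin each. AWK33 expresses granulin 1, AWK43 expresses granulin 2 and AWK107 expresses granulin 3. The gene pgrn-1 encodes progranulin, a secreted precursor that is cut into granulins. With 1 strain per granulin, the granulin and the rest of that strain's genetic background cannot be told apart. The labels do not state which promoter or tissue drives the granulins. The letter in a sample's name is A, B, C or D in wild type, granulin 1 and granulin 3, and E, F, G or H in the null and granulin 2. What the letters mark is not stated, and a strain difference across the 2 sets cannot be told apart from it. Separate cultures are not mentioned in the labels, so the spread that a p-value measures is that between these samples and may be technical.

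Libraries held 48279370 to 128776517 reads assigned to genes. Progranulin gene reads followed the labels, with 6 to 32 reads of pgrn-1 in the null libraries, 527 to 871 in wild type and at least 7283 in every granulin library. Ribosomal RNA took more than 20% of reads in wild type replicate 4 (44.8%), granulin 1 replicate 3 (25.9%) and granulin 2 replicates 3 (52.7%) and 4 (25.02%). Relative to the mean of the 20 libraries, levels of protein-coding genes fell most steeply with exon length in granulin 1 replicate 3. The slope there was -0.82 log2 units per doubling of length. No 2 libraries of a strain agreed within sampling noise. Levels below are read counts scaled to library size and then between libraries (normalised CPM), and differences are log2 differences of CPM with a prior count of 2, which understate the change of low genes.

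All 5 genes lie on the X chromosome (ce11, Ensembl annotation), and all 5 passed the filter on low values. The gene clc-1 (WBGene00000522) spans 11047446 to 11049275 on the plus strand, with 832 exon bases and 2 transcripts. clc-2 (WBGene00000523, 7431465 to 7433535) and clc-5 (WBGene00000526, 7433569 to 7435736) follow each other on the plus strand with 33 bases between them. clc-3 (WBGene00000524) spans 3373236 to 3374742 and clc-4 (WBGene00000525) spans 10782927 to 10783922, both on the minus strand. The nearest clc gene to clc-1 in the set is clc-4, 263523 bases away. Exons of clc-3, clc-4 and clc-5 overlap exons of ZK563.2, sma-9 and C01C10.2 on the opposite strand by 61, 47 and 135 bases. The library kit keeps strand, but the strand setting of the counting is not given, so reads in those overlaps may belong to either gene. This weighs most on clc-4, which had 4 to 61 reads per library, beside sma-9 with up to 13371 reads. Exons of clc-1 and clc-2 overlap no other gene.

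Strain means of clc-1 spanned a 30.1-fold range, with granulin 1 lowest and granulin 3 highest. Wild-type replicates 1 to 4 had 9.28, 9.68, 11.1 and 20.8 CPM, and null replicates had 12.01, 9.02, 9.39 and 10.4 CPM. In granulin 1 the 4 libraries had 0.899, 0.744, 1.63 and 1.06 CPM, from 52, 48, 90 and 66 reads. Every granulin 1 library lay below every library of the other 4 strains. Granulin 2 libraries had 6.48, 9.94, 8.82 and 4.84 CPM, and granulin 3 libraries had 27.5, 46.6, 35.9 and 20.4 CPM. Every granulin 3 library was above all null, granulin 1 and granulin 2 libraries, and 3 of the 4 were above all wild-type libraries. The exception is granulin 3 replicate 4, which lay just under wild type replicate 4, a library in which ribosomal RNA took 44.8% of reads. In CPM of all reads without scaling, wild type had 7.97 to 10.9 and granulin 3 had 21.9 to 76.7, with no overlap. In bulk samples such as these, fewer expressing cells and less RNA per cell cannot be told apart.

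In order of the mean, clc-1 stood at 32.6 ± 11.3 CPM in granulin 3, 12.7 ± 5.44 in wild type, 10.2 ± 1.34 in the null, 7.52 ± 2.29 in granulin 2 and 1.08 ± 0.386 in granulin 1 (SD, n = 4 libraries each). Neighbours in the middle of this order, wild type with the null and the null with granulin 2, had overlapping libraries. The granulin 3 mean was 30.1 times the granulin 1 mean, 3.19 times the null mean and 2.56 times the wild-type mean. The null mean was 9.43 times and the wild-type mean 11.7 times that of granulin 1.

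On the log2 scale clc-1 in granulin 1 was -3.26 ± 0.33 (SE, n = 4 per strain) relative to the null and -3.50 ± 0.33 relative to wild type. In granulin 3 it was 1.61 ± 0.33 relative to the null, and in granulin 2 it was -0.48 ± 0.33. The null itself was -0.24 ± 0.33 relative to wild type. These comparisons share the null libraries. The gene was chosen for its difference between granulin 1 and the null, so nothing is read from their separation. Groups did not overlap, with the first lower, for 1.86% of all genes in granulin 1 against the null, and with the first higher for 15.9% in granulin 3 against the null. The share wholly lower in granulin 1 than in wild type was 1.39%. Wholly above granulin 1 lay 14.7% of all genes in granulin 2 and 7.21% in granulin 3. Wholly above granulin 2 lay 5.97% in granulin 3. Wild type, granulin 1 and granulin 3 share letters, and clc-1 in wild type was 10.3, 13.01, 6.81 and 19.7 times that in granulin 1 for letters A, B, C and D. Granulin 3 was 2.97, 4.81 and 3.24 times wild type for A, B and C and 0.979 times for D, the letter of both replicates 4.

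**Figure D1:**
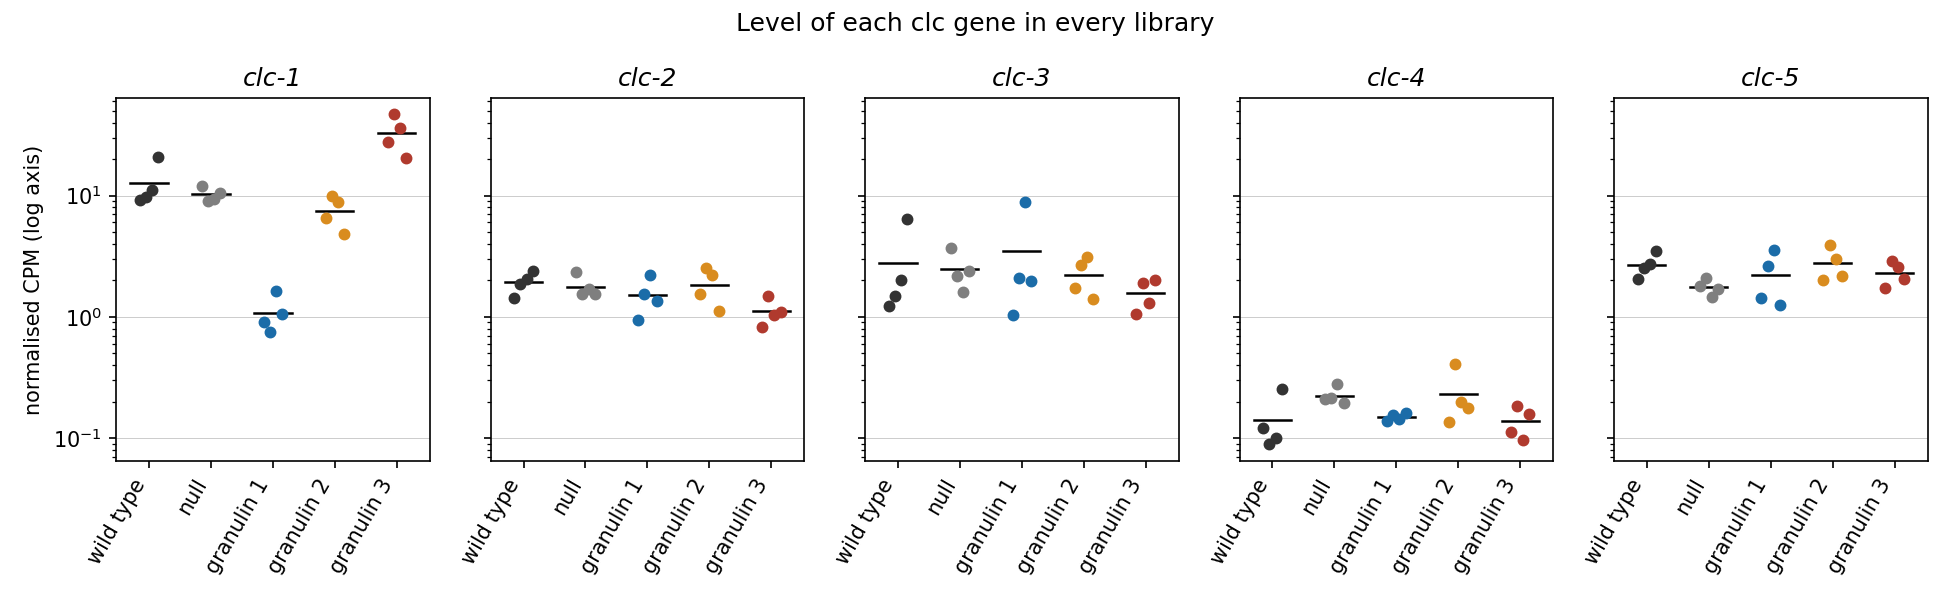
Levels of the 5 claudin-like genes in each library, in normalised CPM on a log10 axis, by strain. Points are single libraries and bars are the means of 4. For clc-1 the 4 granulin 1 libraries lie between 0.744 and 1.63 CPM and the 4 granulin 3 libraries between 20.4 and 46.6, while for the relatives most pairs of strains overlap.

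No change of the relatives clc-2, clc-3, clc-4 and clc-5 passed the test. In all 10 comparisons between strains, 0 of the 4 passed limma with Benjamini-Hochberg adjustment over all genes. Of all genes 0.197% passed in the null against wild type, and 0.47%, 21.6% and 12.7% passed in granulin 1, 2 and 3 against the null. Against wild type 0.324%, 18.3% and 11.2% passed in the same order. Between granulin strains, 18.9% passed in granulin 2 against 1, 5.58% in granulin 3 against 1 and 5.39% in granulin 3 against 2. Of the 40 tests 3 had an unadjusted p under 0.05, all for clc-2 in granulin 3 against the null, wild type and granulin 2, where 24.3%, 19.9% and 20.1% of all genes had one. With voom weights in place of the trend 0 of 40 passed as well. Their log2 differences lay between -0.79 and 0.66, against -3.50 to 4.87 for clc-1.

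The gene clc-2, the seam cell relative, had its lowest mean in granulin 3, at 1.12 ± 0.278 CPM (SD, n = 4), and passed in no comparison. Wild-type replicates had 1.44, 1.87, 2.06 and 2.37 CPM and null replicates had 2.34, 1.55, 1.69 and 1.54 CPM. Granulin 1 had 0.951, 1.53, 2.21 and 1.36 CPM, and granulin 2 had 1.54, 2.53, 2.20 and 1.12 CPM. Granulin 3 had 0.830, 1.495, 1.03 and 1.10 CPM, from 44 to 196 reads. All granulin 3 libraries were below all null libraries, and they overlapped the libraries of the other 3 strains. The log2 difference of granulin 3 from the null was -0.67 ± 0.32 (95% interval -1.34 to -0.0024, limma adjusted p = 0.204), where groups with the first lower did not overlap for 6.23% of all genes. These values depend on the setting. On the deposited scale the difference from the null was -0.31 and that from wild type 0.000229. The median of all genes on that scale was 0.43 and 0.81, beside 0.07 and 0.03 after scaling. With library weights or the length slope as a covariate the clc-2 difference from the null passed (limma adjusted p = 0.00359 and 0.0111). From wild type the main value was -0.79 ± 0.32 (limma adjusted p = 0.149) and from granulin 2 it was -0.68 ± 0.32 (limma adjusted p = 0.239). Granulin 1, where clc-1 was low, had a clc-2 difference of -0.27 ± 0.32 from the null (95% interval -0.94 to 0.40, limma adjusted p = 0.879).

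The gene clc-3 was dominated by single libraries. Wild-type replicates had 1.24, 1.49, 2.00 and 6.39 CPM, null replicates 3.68, 2.17, 1.61 and 2.39, and granulin 1 replicates 1.04, 2.11, 8.88 and 1.97 CPM. The 2 highest values of the series, 6.39 and 8.88 CPM, are those of wild type replicate 4 and granulin 1 replicate 3, both with over 20% ribosomal RNA. Granulin 2 had 1.72, 2.68, 3.09 and 1.39 CPM, so that of its libraries over 20% replicate 3 was its highest and replicate 4 its lowest. The part of ribosomal RNA in the level was not tested. Granulin 3 had 1.06, 1.91, 1.30 and 2.00 CPM, and every pair of strains overlapped. The difference of granulin 1 from the null was 0.08 ± 0.55 (95% interval -1.07 to 1.23, limma adjusted p = 0.977), and that of granulin 3 was -0.63 ± 0.55 (95% interval -1.78 to 0.52, limma adjusted p = 0.53). Without granulin 1 replicate 3 the first of these turned to -0.53.

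The gene clc-4 was close to the limit of detection, with 61 reads in 1 granulin 2 library and 4 to 24 in the other 19. Wild type had 0.122, 0.0890, 0.101 and 0.254 CPM, the null 0.211, 0.213, 0.278 and 0.197, and granulin 1 had 0.138, 0.155, 0.145 and 0.160 CPM. Granulin 2 had 0.136, 0.412, 0.198 and 0.178 CPM and granulin 3 had 0.113, 0.183, 0.0969 and 0.159 CPM. All granulin 1 and all granulin 3 libraries were below all null libraries, as they were for 1.86% and 6.23% of all genes. The differences were -0.50 ± 0.36 for granulin 1 (95% interval -1.25 to 0.25, limma adjusted p = 0.804) and -0.63 ± 0.36 for granulin 3 (95% interval -1.37 to 0.12, limma adjusted p = 0.304). The null was 0.66 ± 0.36 above wild type on this scale (95% interval -0.092 to 1.40, limma adjusted p = 0.565), with 1 null library above all wild-type libraries.

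The gene clc-5, the immediate neighbour of clc-2, ran between 1.25 and 3.95 CPM over all libraries. Wild type had 2.07, 2.51, 2.71 and 3.47 CPM, the null 1.79, 2.11, 1.47 and 1.71, and granulin 1 had 1.44, 2.65, 3.55 and 1.25 CPM. Granulin 2 had 2.02, 3.95, 3.01 and 2.19 CPM and granulin 3 had 1.74, 2.88, 2.58 and 2.07 CPM. The null had the lowest mean, and every other strain overlapped it. Against the null, clc-5 was 0.21 ± 0.33 in granulin 1 (95% interval -0.48 to 0.90, limma adjusted p = 0.905), 0.61 ± 0.33 in granulin 2 (95% interval -0.081 to 1.30, limma adjusted p = 0.223) and 0.37 ± 0.33 in granulin 3 (95% interval -0.32 to 1.06, limma adjusted p = 0.539). The null was -0.59 ± 0.33 relative to wild type (95% interval -1.28 to 0.10, limma adjusted p = 0.589). For clc-2 and clc-5, 33 bases apart, the differences of granulin 3 from the null had opposite signs, -0.67 and 0.37, but neither passed. This contrast between the genes was not tested. Over the 20 libraries, by root mean square difference of centred log2 level, clc-5 was the 256th nearest to clc-2 of 15736 other genes.

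**Figure D2:**
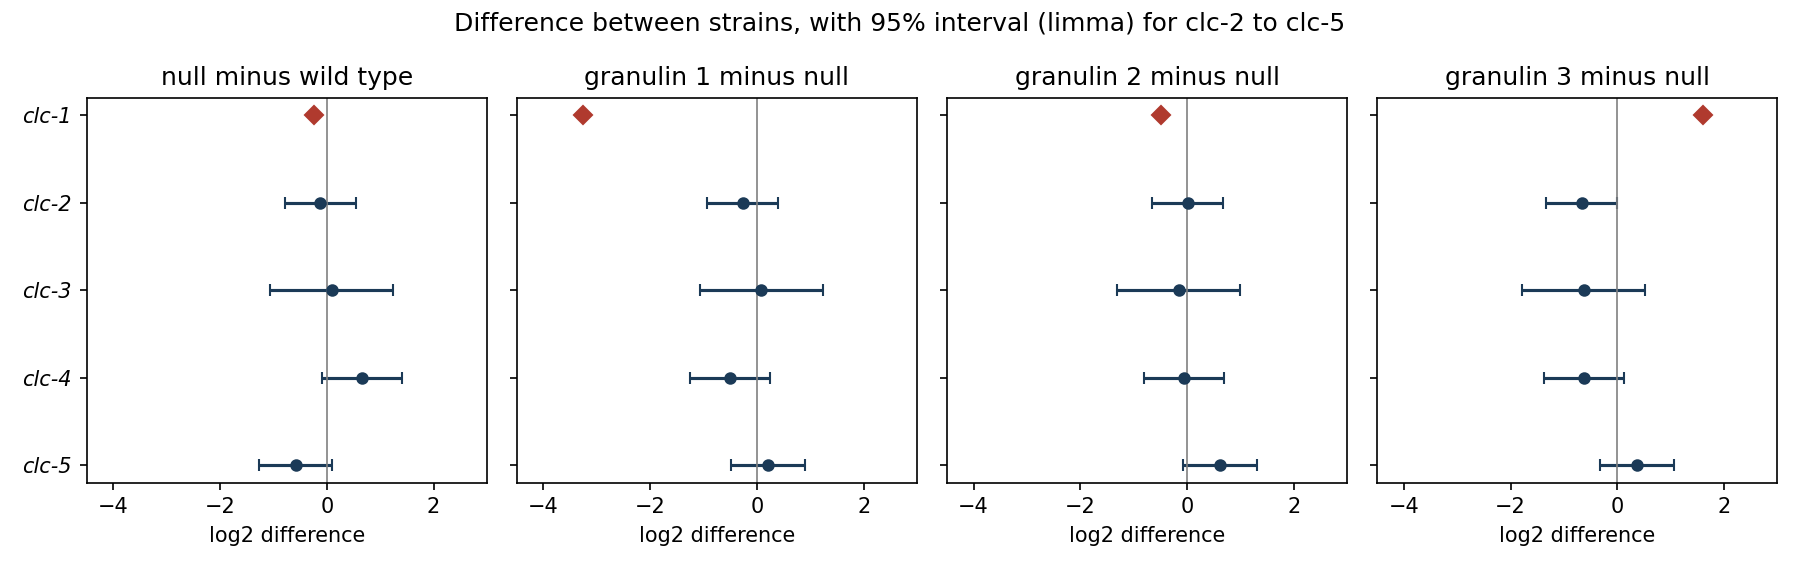
Log2 differences of the 5 genes for the null against wild type and each granulin strain against the null, with 95% intervals from limma for the 4 tested relatives. The clc-1 points, shown without an interval as a description, are at -3.26 in granulin 1 and 1.61 in granulin 3, and the intervals of the relatives reach or cross 0 except that of clc-2 in granulin 3, which ends at -0.0024.

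Per kilobase of exon, clc-1 was the highest of the 5 genes in 16 of 20 libraries, all but the 4 of granulin 1, and clc-4 was the lowest in all 20. Mean wild-type levels per kilobase were 15.3 CPM for clc-1, 3.18 for clc-3, 2.23 for clc-5, 2.01 for clc-2 and 0.212 for clc-4. In granulin 1 they were 1.30 for clc-1, below clc-3 at 4.004, clc-5 at 1.84 and clc-2 at 1.57, and in granulin 3 clc-1 reached 39.2. As a share of the level per kilobase summed over the 5 genes, clc-1 made up 67.0 ± 1.90% in wild type, 65.7 ± 2.61% in the null and 56.0 ± 1.91% in granulin 2 (SD, n = 4). It made up 87.9 ± 3.95% in granulin 3 and 16.8 ± 5.99% in granulin 1. No test was run on these shares. The sum of the other 4 genes was 7.64 ± 5.44 CPM per kilobase in granulin 1, 7.64 ± 3.69 in wild type, 6.47 ± 1.38 in the null, 7.12 ± 2.33 in granulin 2 and 5.08 ± 1.13 in granulin 3.

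No gene around clc-1 passed the test in granulin 1. Of the 5 tested genes on each side, within 38391 bases to the left and 15850 to the right, 0 of 10 passed in granulin 1 against the null (limma adjusted p 0.83 to 0.996, log2 differences -0.38 to 0.66, where 0.47% of all genes passed). They include ldb-1, for a LIM-domain-binding protein, and egl-15, for a fibroblast growth factor receptor, on the left. On the right lie C09F12.2 and lpr-3, lpr-6, lpr-5 and lpr-4, of the lipocalin-related family, of which lpr-3 acts in the extracellular matrix at the outer face of epithelia.

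In granulin 3 against the null, 1 of the 10 neighbours passed. C09F12.2, 4639 bases from clc-1, had 26, 42, 61 and 138 reads in granulin 3 against 10, 1, 3 and 6 in the null, and rose by 2.67 ± 0.51 (limma adjusted p = 0.0017, where 12.7% of all genes passed). It was also higher than in wild type, which had 0, 4, 1 and 2 reads, by 3.18 ± 0.51 (limma adjusted p = 0.000199). The 4 lipocalin-related genes had differences of 1.49 to 2.08 from the null that did not pass, from lpr-4 at 1.85 ± 0.62 (limma adjusted p = 0.0556) to lpr-5 at 1.55 ± 0.73 (limma adjusted p = 0.198). Relative to wild type these 4 genes stood at -0.75 to -0.17 in granulin 3 (limma adjusted p 0.699 to 0.937). Their mean levels were higher in granulin 2 than in granulin 3. For lpr-3, lpr-6, lpr-5 and lpr-4 these were 8.81, 1.96, 3.29 and 2.75 CPM beside 6.16, 1.72, 2.40 and 2.30. Mean clc-1 in granulin 2 was 7.52 CPM, below the 10.2 of the null. C09F12.2 had a mean of 0.109 CPM in granulin 2 beside 0.616 in granulin 3. The 5 genes on the left ranged from -0.33 to 0.65 in granulin 3 against the null and none passed. In granulin 1 against wild type 0 of 10 neighbours passed, where 0.324% of all genes passed, and the lowest difference was that of lpr-3 at -2.53 ± 0.81 (limma adjusted p = 0.272).

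**Figure D3:**
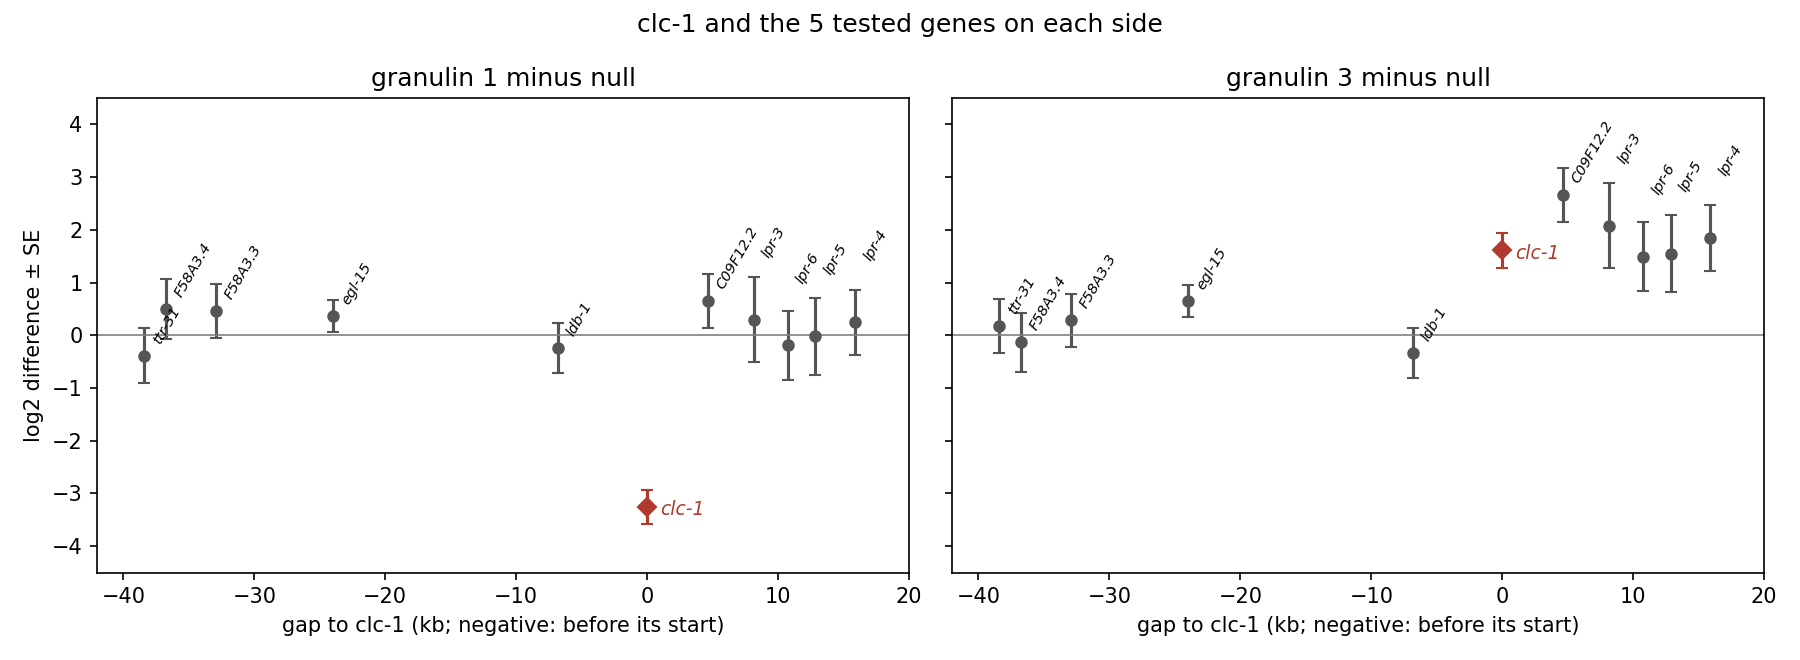
Log2 differences (± SE) of clc-1 and the 5 tested genes on each side against the distance to clc-1 in kilobases, for granulin 1 and granulin 3 against the null. In granulin 1 clc-1 lies alone at -3.26 with its neighbours between -0.38 and 0.66, and in granulin 3 the 5 genes to the right lie between 1.49 and 2.67, of which C09F12.2 passed the test. Granulin 2, in which the means of the lpr genes were above those of granulin 3, is not shown.

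The genes whose centred log2 level over the 20 libraries lay nearest to that of clc-1 were D1086.6, spin-3, clec-74, sdz-24 and nlp-101, with root mean square differences of 0.91, 1.11, 1.14, 1.15 and 1.18 log2 units. They lie on chromosomes V, X, IV, II and X. The genes were picked for this nearness and the libraries share depth and ribosomal content, so the likeness is a description. By Pearson r over the same libraries, 3 of the 5, D1086.6 (r = 0.85), sdz-24 (0.75) and spin-3 (0.74), were again among the nearest 5. The gene D1086.6 had 13.5 ± 10.04 CPM in granulin 1, 45.4 ± 17.5 in the null, 55.7 ± 16.4 in wild type, 63.7 ± 7.15 in granulin 2 and 85.3 ± 27.8 in granulin 3 (SD, n = 4). Its granulin 1 libraries had 6.63 to 28.5 CPM. The spinster-like gene spin-3 had the same lowest and highest strain, at 0.428 ± 0.338 CPM in granulin 1 and 2.62 ± 1.72 in granulin 3. Its granulin 1 libraries (0.160 to 0.904 CPM) overlapped those of the null (0.596 to 2.88 CPM). Because both genes were picked for nearness to clc-1, these lowest and highest strains are no separate result.

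Measured the same way, none of the relatives was among the genes nearest to clc-1. Of 15736 other genes tested, clc-5 was the 1278th nearest, clc-4 the 3939th, clc-2 the 4428th and clc-3 the 9691st. The nearest genes to clc-2 were hil-1, btb-20 and slc-25A21 (0.27 to 0.30 log2 units), and those to clc-3 were M60.4, ttr-6 and T04A6.1 (0.22 each). The nearest to clc-4 were popl-5, strl-1 and C47G2.3 (0.28 to 0.29). Those nearest to clc-5 were C05D11.13, a pseudogene and mfsd-12 (0.22 to 0.27).

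The annotation holds 26 further genes with a numbered clc symbol, of which 25 are in the tables and 15 passed the filter. In granulin 1 against the null 0 of 15 passed, where 0.47% of all genes did. The median was -0.03 beside 0.04 for all genes. In the null against wild type 0 of 15 passed, where 0.197% of all genes did. In granulin 2 against the null 4 rose and 1 fell, where 17.5% of all genes were higher and 4.18% lower, and the median was 0.29 beside 0.04. In granulin 3 against the null 2 rose and 0 fell, where 11.2% of all genes were higher, and the median was -0.09 beside 0.07. The genes given next were named after their values were seen.

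The gene clc-10 (chromosome III) rose in both granulin 2 and granulin 3. It had 35, 1, 4 and 6 reads in the null, 12, 6, 2 and 0 in wild type, 23, 17, 24 and 15 in granulin 1, 50, 722, 353 and 102 in granulin 2 and 79, 176, 113 and 339 in granulin 3. All libraries of granulin 2 and granulin 3 were above all others, in CPM as well. Of all genes, 20.8% in granulin 2 and 15.9% in granulin 3 lay wholly above the null. Wholly above wild type lay 16.4% and 13.1%, and above granulin 1 14.7% and 7.21%. Against the null it rose by 4.34 ± 0.67 in granulin 2 (limma adjusted p = 5.35e-05) and by 3.61 ± 0.67 in granulin 3 (limma adjusted p = 0.00131). In granulin 2 the gene clc-18 rose by 3.04 ± 0.63 (limma adjusted p = 0.00115), with 16, 126, 103 and 28 reads beside 6, 1, 3 and 6 in the null. Neighbours on chromosome III, clc-27 rose by 2.13 ± 0.49 (limma adjusted p = 0.0027) and clc-24 by 2.60 ± 0.72 (limma adjusted p = 0.0122) in granulin 2. The gene clc-19, whose exons overlap those of clc-20 on the other strand, fell by 1.80 ± 0.48 in granulin 2 (limma adjusted p = 0.00928). In granulin 3 clc-26 rose by 0.99 ± 0.32 (limma adjusted p = 0.0446), a call that was lost in 13 of 19 alternatives. Exons of clc-26 overlap those of E_BE45912.2, a gene with up to 965 reads, by 87 bases on the same strand. The call of clc-24 was lost without null replicate 3 (limma adjusted p = 0.0598).

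**Figure D4:**
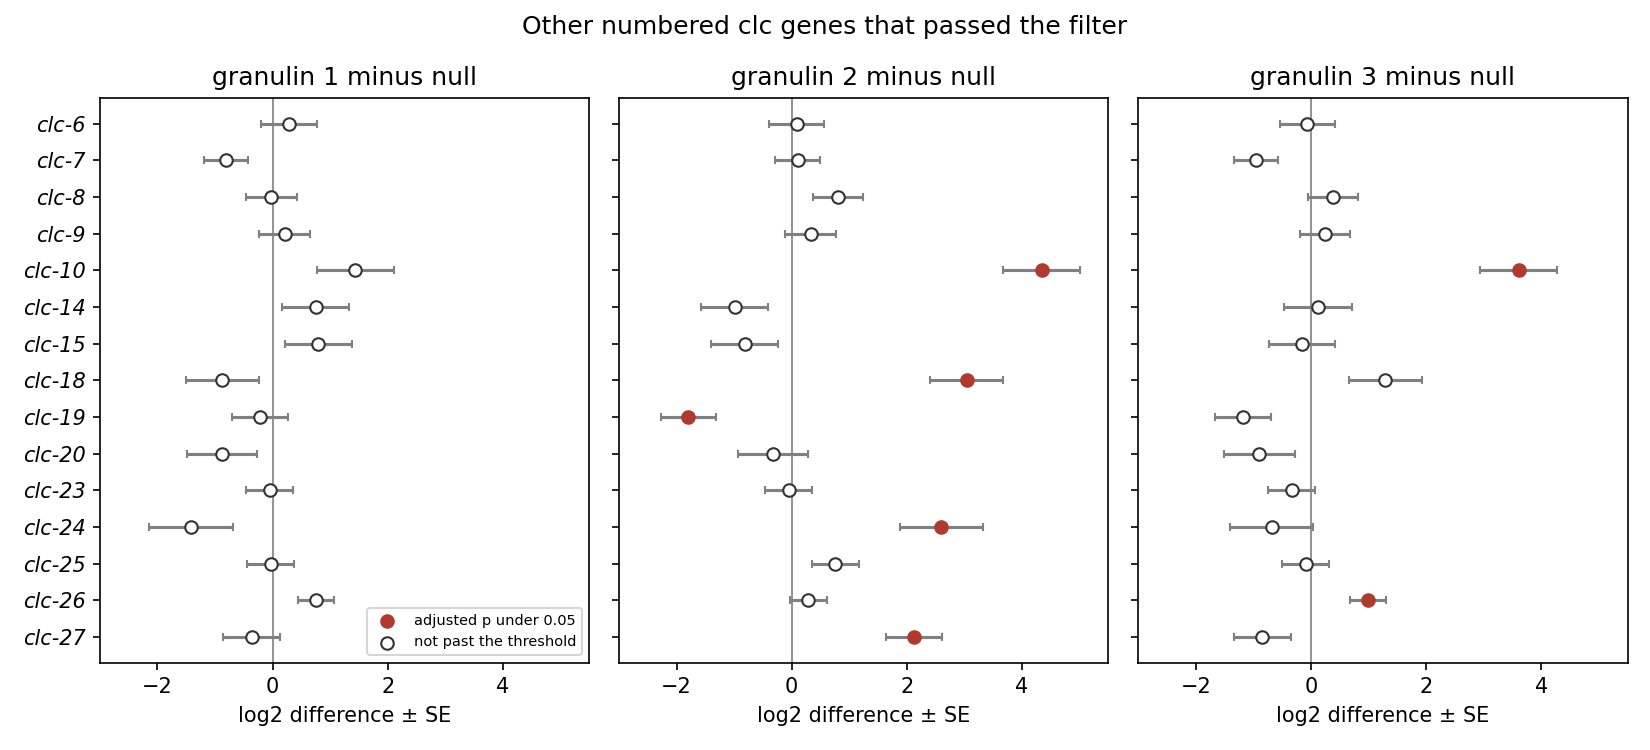
Log2 differences of the 15 tested further numbered clc genes in each granulin strain against the null. Filled points passed limma with Benjamini-Hochberg adjustment, 0 in granulin 1, 5 in granulin 2 and 2 in granulin 3, led by clc-10 at 4.34 and 3.61.

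Sperm genes rose in granulin 2 and granulin 3, as clc-10 did, but no other further clc gene passed against the null in both. Against wild type 2 of 15 rose in granulin 3, clc-10 by 4.04 and clc-18 by 2.46, where 10.7% of all genes were higher. The call of clc-18 was lost without granulin 3 replicate 4 (limma adjusted p = 0.0616). Of 13 tested sperm genes 13 rose in granulin 2 and 7 in granulin 3 against the null, with medians of 3.39 and 1.67. Of all genes, 17.5% and 11.2% were higher there. In granulin 1 against the null 0 sperm genes passed, where 0.47% of all genes did. The summed level of the sperm genes ranged from 44.6 to 62.3 CPM in granulin 2 and from 12.1 to 43.4 CPM in granulin 3. It ranged from 3.35 to 10.5 CPM in granulin 1, 3.49 to 5.40 in the null and 1.74 to 4.45 in wild type. Their part in the clc results was not tested. The summed sperm levels of granulin 1, where clc-1 was lowest, and of the null overlapped.

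No claudin-related or junction gene passed the test in granulin 1, where 0.47% of all genes passed against the null and 0.324% against wild type. With shares so low, these counts of 0 give no result about the lists. Of the claudin-like relatives vab-9, nsy-4, stg-1 and stg-2, 3 were tested and 0 passed in any of the 10 comparisons. Of all genes 0.197% to 21.6% passed in these. Among 18 genes of the apical junction and polarity, such as the junction genes ajm-1 and dlg-1 and the cadherin gene hmr-1, 0 passed in any comparison of a granulin strain with the null or wild type. In granulin 2 and granulin 3, 21.6% and 12.7% of all genes passed against the null, and 18.3% and 11.2% against wild type. The medians of the 18 genes were -0.38 in granulin 1 and -0.62 in granulin 3 against the null, beside 0.04 and 0.07 for all genes. The exception was let-413, a basolateral polarity gene of the Scribble family, named after its values were seen. It was higher in granulin 2 than in granulin 1 by 0.88 ± 0.28 (limma adjusted p = 0.0294), where 18.9% of all genes passed.

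No marker of the tissues in which clc-1 and clc-2 have been described passed in granulin 1, where 0.47% of all genes passed against the null. With so low a share, a count of 0 in a list this short gives no result about its tissue. Of 14 pharynx genes 12 were tested, and 0 passed in granulin 1 against the null, at a median of -0.0029. In granulin 3 against the null 0 passed, at a median of 0.75, where 12.7% of all genes passed. Against wild type 3 rose in granulin 3, at a median of 0.74, where 10.7% of all genes were higher. In granulin 2, 1 rose against the null at a median of 1.34 and 3 against wild type at a median of 1.83. Of all genes 17.5% and 15.5% were higher in these comparisons. The summed level of the pharynx list was 18.3 to 32.8 CPM in the null, 15.7 to 30.2 in wild type, 12.4 to 36.0 in granulin 1. In granulin 2 it reached 26.05 to 124 CPM and in granulin 3 21.1 to 92.9 CPM. Of 14 hypodermis and seam genes 12 were tested, with 0 called in granulin 1, 3 higher in granulin 2 and 1, elt-3, higher in granulin 3 against the null. These counts are near the 17.5% and 11.2% of all genes that were higher in granulin 2 and granulin 3. Their summed level overlapped in all strains, at 64.4 to 179 CPM in the null and 88.0 to 236 in granulin 3. In the lists for intestine (9 tested), oocyte (15) and body wall muscle (9), no gene passed for granulin 1, granulin 2 or granulin 3 against the null. Of all genes 0.47%, 21.6% and 12.7% passed in these comparisons, so that only in granulin 1 is a count of 0 near the share. Among 12 neuron genes 3 rose and 1 fell in granulin 2, near the 17.5% and 4.18% of all genes higher and lower there, and 0 passed in granulin 1 or granulin 3.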

How the data were processed

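The kits were Qiagen miRNeasy for RNA and TruSeq Stranded Total RNA for libraries, per the labels' protocols. The authors deposited 1 table of log2 CPM per library. Per the submitters' processing notes the tools were limma, edgeR, HTSeq and STAR and the build was ce11, with no versions or settings. Reads were recovered from the steps of the deposited log2 values (prior count 2, floor -5.05), and 99.99% or more of those above 0 in each library were whole to within 0.01 reads. Genes with at least 0.177 CPM in 4 libraries and 15 reads in all were kept (15737). Log2 CPM with trimmed-mean scaling (30% of ratios, 5% of levels) were fitted over all 20 libraries in R 4.3.3 with limma 3.58.1 (trend, robust), tested on simulated data first. Because the unit is log2, no count model was run. P-values were adjusted by Benjamini-Hochberg over the 15737 genes, with a threshold of 0.05.

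Groups came from the strain label. The group label writes AWK33 for all 3 granulin strains, but its granulin number matches the strain label and the title in every granulin sample. Replicates are numbered in accession order. Names and coordinates came from an Ensembl annotation of ce11 that holds 46603 of the IDs. No sequence is shown, because no sequence source was used here. The members and lists were chosen with earlier results of these data known. The genes named are the 5 members, genes overlapping them, 5 neighbours of clc-1 on each side, the genes nearest in pattern (5 for clc-1, 3 for each relative) and list genes called where a member was called. Because no tested member was called, list genes and further clc genes were named after their values were seen. The lists were other numbered clc genes, claudin-like relatives, apical junction and polarity, pharynx, hypodermis and seam, intestine, oocyte, sperm, body wall muscle and neuron. Alternatives covered scaling, prior count, filter, voom, the 2 strains alone, library weights, a length covariate, leaving out libraries and a shared-letter block.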

Additional observations from a re-analysis of the deposited data

Results flagged for a closer look

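The gene clc-1 lay below every null library in all 4 granulin 1 libraries and above every null library in all 4 granulin 3 libraries. The difference between granulin 3 and granulin 1 was 4.87 ± 0.33 log2 units. It was not tested, because the gene was chosen for its level in granulin 1. In the 25 groups of 4 libraries formed by the 5 genes and 5 strains, no highest or lowest library stood apart by Dixon's test, which chance passes in about 1 of 20 groups.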

How the results depend on the processing

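Differences of clc-1 kept their direction in granulin 1 and granulin 3 under every alternative tried. Granulin 1 against the null was -3.50 to -3.21 and, with 1 library left out, -3.47 to -3.10. Granulin 3 against the null was 1.42 to 1.99, and 1.41 to 1.82 with 1 library left out. On the deposited scale, without scaling beyond total reads, granulin 1 was -3.02 and granulin 3 was 2.18 relative to wild type, and granulin 3 was 2.70 relative to granulin 2. On that scale the median of all genes in granulin 3 against wild type is 0.81, beside 0.03 after scaling.

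No relative was called in 186 of 194 counts over alternatives and comparisons, nor in any of 80 counts with a library left out (range 0 to 0). The exceptions came with library weights, a length covariate or libraries left out for low length slopes. With library weights, whose estimation stopped before it converged, 1 relative was called in the null against wild type (clc-4, 0.86, limma adjusted p = 0.0241), 3 in granulin 3 against the null (clc-2, clc-3 and clc-4, at -0.79, -0.80 and -0.71), 1 in granulin 3 against wild type (clc-2, -0.96) and 1 in granulin 3 against granulin 2 (clc-2, -0.91). With the length slope as a covariate clc-2 was the 1 call in each of granulin 3 against the null (-0.82), wild type (-1.07) and granulin 2 (-0.76). Without the libraries with low length slopes clc-2 was the 1 call in granulin 3 against wild type (-0.93, limma adjusted p = 0.0474). The cause was not tested. The deposited scale put clc-2 in granulin 3 at 0.000229 relative to wild type, the reverse sign, where the median of all genes was 0.81.

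In granulin 1 against the null, clc-3 was -0.45 with library weights, -0.52 without low-slope libraries, -0.56 without libraries with over 20% ribosomal RNA, -0.27 with the slope covariate and -0.53 to 0.50 with 1 library left out. There clc-5 was -0.0045, -0.059 and -0.089 under the first 3 of these and -0.059 to 0.44 with 1 library left out. With the shared letter as a replicate block 0 relatives were called in each of 4 comparisons. Of 16 same-letter pairs 8 correlated above 0.1 (r from -0.59 to 0.58). In 7 of 16 comparisons a library correlated best with the one of its own letter. Whether the letters mark a pairing of samples was not tested. The count of all genes called moved by more than 1.5 times in 66 of 194 cases, for example from 74 to between 25 and 667 in granulin 1 against the null, and from 2006 to between 1190 and 6491 in granulin 3 against the null. Depth limits clc-4, which was not tested under the filter 5 times as high. It also failed the filter in fits of the 2 strains alone for every comparison with wild type and for granulin 2 and granulin 3 against granulin 1. In these cases the counts of called relatives cover clc-2, clc-3 and clc-5 alone.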
